A study of Arabidopsis thaliana with 8 samples.

Results

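Photosystem II is the pigment-protein complex of the thylakoid membrane that splits water and passes electrons to plastoquinone. Its large reaction centre subunits are made in the chloroplast, while many small subunits, and most of the factors that build and repair the complex, are encoded in the nucleus and imported. This account concerns 5 such nuclear genes in *Arabidopsis thaliana*. They were taken as the probes whose platform annotation names exactly one gene, that gene being PSBW, PSBY, PSB27, LPA19 or AT1G76450. Each of the 5 has 1 such probe, of 692 single-gene probes and 3439 probes in all. PSBW and PSBY are small membrane-spanning subunits of the complex. PSB27 and LPA19 are related lumenal proteins that act during assembly and repair, and AT1G76450 encodes a PsbP-domain protein of the thylakoid lumen.

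Total RNA was measured on 8 arrays, 4 of wild type (WT) and 4 of the *atpd* mutant, both in ecotype Wassilevskija and on MS (Murashige and Skoog) medium. The mutant lacks the delta subunit of ATP synthase, and the comparison asks how transcripts for proteins of the chloroplast and other compartments differ when it is missing. The labels name no allele, number of lines, age or tissue, nor do they say whether different plants were used for each array of a genotype, so the p-values cover the spread between arrays alone, and that spread may be technical. No probe was named for ATPD alone, so the mutation itself was not checked here, and none of the 7 root and flower markers looked for had a single-gene probe.

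The deposited values are intensities on an arbitrary linear scale that ends at 100, and 395 to 430 of the probes of an array were at 0. All 5 genes were above 0 on all 8 arrays. The median intensity above 0 was 0.279 to 0.303 on WT arrays and 0.613 to 0.705 on *atpd* arrays, and most probes were brighter in *atpd* on the deposited scale. Changes below are therefore given as log2 *atpd* minus WT after quantile normalisation, which uses only the order of probes within an array. It gives all arrays the same distribution, so any overall difference between the genotypes is removed. Whether that difference was technical was not tested. The other scalings stand beside them where they differ. Replicates 1 and 2 of a genotype resembled each other, as did replicates 3 and 4, and values are given by such pair where the pairs differ. Transcript levels of different genes cannot be read from the brightness of different probes, so ranks describe each probe's own place among the others.

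After quantile normalisation, AT1G76450 and PSBW of the 5 genes rose in *atpd*, PSBY and LPA19 fell, and PSB27 did not pass the test. As deposited, LPA19 and PSB27 were higher in *atpd*, by 0.51 and 1.11 on the log2 scale, where the median probe was higher by 0.996. The next values are again after quantile normalisation. AT1G76450 rose 6.31-fold and PSBW 4.41-fold, while PSBY fell by 0.89 and LPA19 by 0.60 on the log2 scale. With limma fitted over 2921 probes and Benjamini-Hochberg adjustment at 0.05, 4 of the 5 were called, 2 higher and 2 lower. Calls were common on these arrays: 51.8% of all tested probes passed, 21.4% higher and 30.4% lower, with a median change of -0.090. The share called is thus no mark of these genes, and their individual sizes and directions are described below. In bulk RNA, fewer cells of a type and less RNA per cell cannot be told apart.

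**Figure D1:**
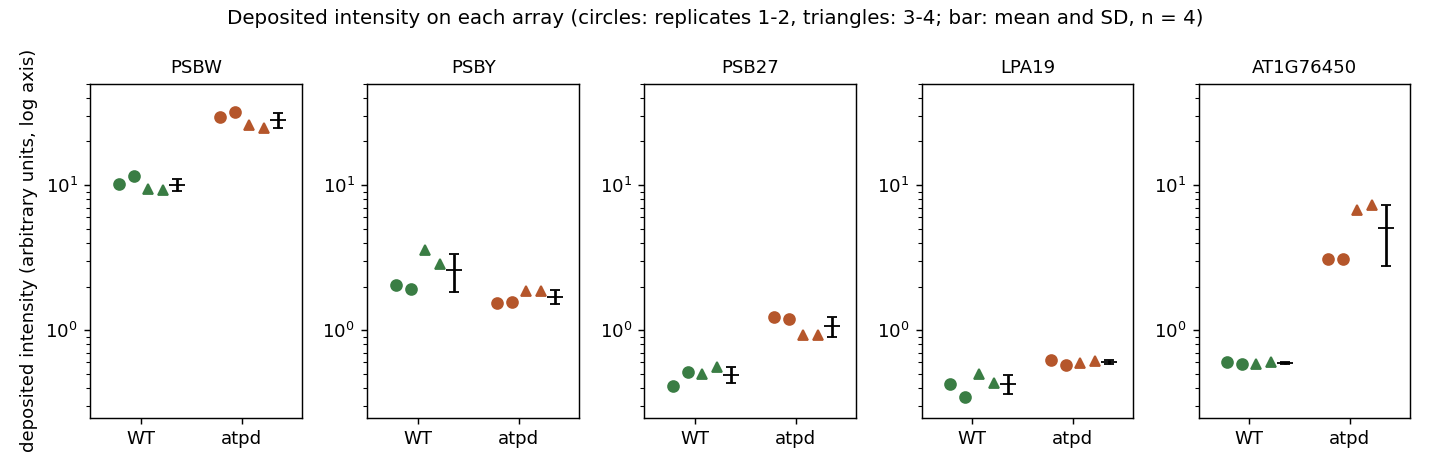
Deposited intensity (arbitrary units, log axis) of each gene's probe on the 4 WT and 4 *atpd* arrays, with circles for replicates 1 and 2, triangles for replicates 3 and 4, and bars for the mean and SD (n = 4). PSBW, PSB27, LPA19 and AT1G76450 lie higher on every *atpd* array than on any WT array, and PSBY lies lower.

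PSBW, a single-helix subunit that helps to hold photosystem II dimers and their antenna together, gave the brightest of the 5 probes. Its deposited intensity was 10.1, 11.5, 9.42 and 9.27 on WT replicates 1 to 4 and 29.5, 31.8, 25.8 and 24.9 on the *atpd* replicates. All *atpd* values were above all WT values, and both array pairs gave nearly the same log2 change, 2.06 in replicates 1 and 2 and 2.22 in replicates 3 and 4. In rank the probe was between the 44th and the 54th brightest on the WT arrays and between the 9th and the 12th brightest on the *atpd* arrays. The rise after quantile normalisation was 2.14 (95% interval 1.81 to 2.47, limma adjusted p = 1.09e-05), larger than for 97.0% of tested probes. With the means of array pairs the same rise had a limma adjusted p of 0.0110.

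The size of the PSBW rise depended on how bright probes were scaled. It was 2.48 after cyclic loess (adjusted p = 1.29e-05) and 1.47 as deposited (adjusted p = 4.38e-05), where the median of all probes was itself at 0.996. When all arrays were brought to a common median it was 0.30 (interval -0.12 to 0.72, adjusted p = 0.201), and the genotypes then overlapped. In percentile points, which leave little room near the top, the mean went from 98.4 ± 0.190 in WT to 99.7 ± 0.0414 in *atpd* (SD, n = 4 in each). Limma on percentiles did not call this step (adjusted p = 0.496). Its standard error of 1.42 points was far above these SDs and was set largely by other probes.

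PSBY encodes a precursor that is cut into a pair of small single-helix proteins, which sit at the edge of the photosystem II core. Its intensity was 2.06, 1.94, 3.57 and 2.84 on WT replicates 1 to 4 and 1.55, 1.55, 1.86 and 1.88 on the *atpd* replicates. All WT values were above all *atpd* values, and in both genotypes replicates 3 and 4 were higher than replicates 1 and 2. PSBY was the only one of the 5 genes whose deposited intensity was lower in *atpd*, on a scale where the median probe was higher.

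The fall of PSBY after quantile normalisation was -0.89 (95% interval -1.32 to -0.46, limma adjusted p = 0.00419), with -0.88 in replicates 1 and 2 and -0.89 in replicates 3 and 4. The probe's place went from between the 97th and the 153rd brightest in WT to between the 208th and the 325th in *atpd*. As deposited the change was -0.57 (adjusted p = 0.0409) and with a common median -1.74 (adjusted p = 0.000120). After cyclic loess it was -0.38 (interval -0.84 to 0.080, adjusted p = 0.155). The call was also lost on percentile ranks (adjusted p = 0.0632), and averaging each array pair ended it too (adjusted p = 0.104).

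PSB27 is a lumenal factor that in cyanobacteria binds the immature complex before the water-splitting cluster forms, and in Arabidopsis serves recovery after photodamage. Its intensity was 0.412, 0.514, 0.501 and 0.555 on the WT replicates and 1.24, 1.202, 0.928 and 0.922 on the *atpd* replicates. The deposited values did not overlap, but the ranks did. The WT arrays placed the probe at the 66.6th to the 75.0th percentile. *atpd* replicates 1 and 2 placed it at the 82.7th and 82.4th, above all WT arrays, and replicates 3 and 4 at the 68.0th and 67.3rd, within the WT range.

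After quantile normalisation PSB27 differed by 0.17 (95% interval -0.26 to 0.60, limma adjusted p = 0.470). The pairs went opposite ways, 0.47 in replicates 1 and 2 and -0.13 in replicates 3 and 4. As deposited the difference was 1.11 (adjusted p = 0.000446), close to the 0.996 of the median probe. The interval after quantile normalisation leaves room for changes of either sign.

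LPA19, named for low photosystem II accumulation, is a Psb27 homologue that in Arabidopsis assists the trimming of the D1 reaction centre protein. Its intensity was 0.427, 0.349, 0.500 and 0.433 on WT replicates 1 to 4 and 0.622, 0.577, 0.596 and 0.617 on the *atpd* replicates. Every *atpd* value was thus higher than every WT value in deposited units. Yet the probe lost place on every *atpd* array. It stood between the 60.2nd and the 70.1st percentile in WT and between the 41.6th and the 50.6th in *atpd*.

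The direction of LPA19 therefore depended on the scaling. The change was -0.60 after quantile normalisation (95% interval -0.91 to -0.29, limma adjusted p = 0.00576), -0.66 with a common median (adjusted p = 0.00507) and -0.56 after cyclic loess (adjusted p = 0.00912). As deposited it was 0.51 (adjusted p = 0.0104), below the 0.996 of the median probe. In percentile points the probe fell by 20.5 (adjusted p = 0.00128). With a random block for the array pairs the quantile call was lost (adjusted p = 0.0654), as it was in replicates 1 and 2 alone, where the change was -0.45 (adjusted p = 0.0576).

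AT1G76450 belongs to the PsbP-domain family, lumenal relatives of a protein that stabilises the water-splitting site, and several of its members have roles outside the oxygen-evolving complex. Its intensity was nearly constant in WT, at 0.601, 0.584, 0.590 and 0.607. On the *atpd* replicates it was 3.08, 3.12, 6.72 and 7.34. The genotypes were far apart, and the *atpd* arrays split by pair. The probe moved from between the 621st and the 738th brightest in WT to between the 45th and the 117th in *atpd*.

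The rise of AT1G76450 was 2.66 (95% interval 1.74 to 3.57, limma adjusted p = 0.000676), larger than for 98.6% of tested probes. It was 1.78 in replicates 1 and 2 and 3.53 in replicates 3 and 4, and that difference between pairs was not tested. The gene was called in every scaling, at 2.97 as deposited (adjusted p = 7.84e-05), 1.80 with a common median (adjusted p = 0.000590) and 2.92 after cyclic loess (adjusted p = 0.000205). On percentile ranks it rose by 19.9 points (adjusted p = 0.000110). With the means of array pairs the limma adjusted p of AT1G76450 was 0.0248.

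**Figure D2:**
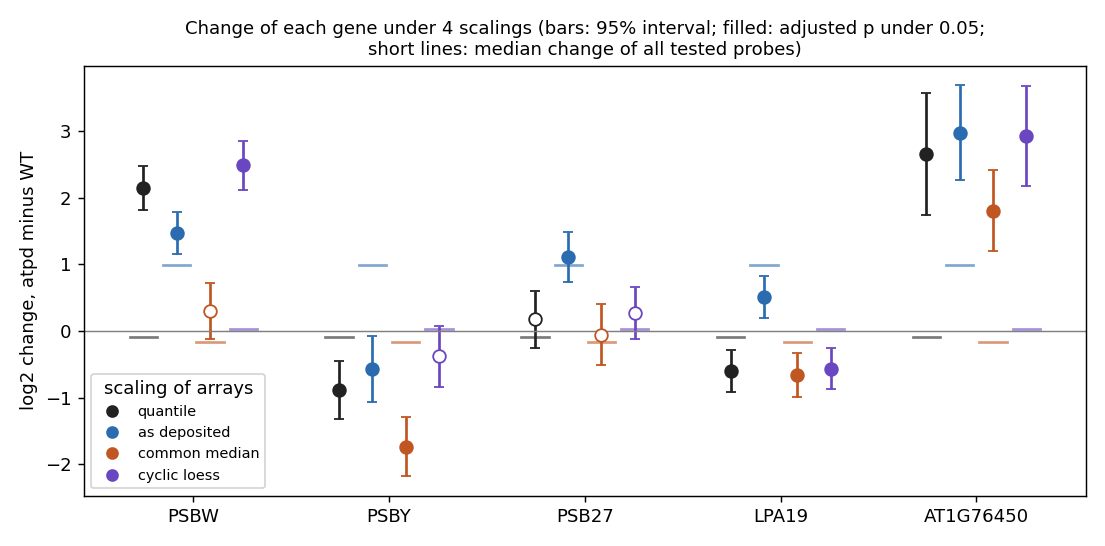
Log2 change, *atpd* minus WT, of each gene under the 4 scalings of the arrays. Bars are 95% intervals from limma, filled points have an adjusted p under 0.05, and short lines mark the median change of all tested probes. AT1G76450 is above 0 in all 4 scalings, PSBW spans 0.30 to 2.48, and LPA19 is above 0 only as deposited.

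Over the scalings, the number of genes called differed. As deposited all 5 were called, 4 higher and 1 lower, where 71.5% of all tested probes were called, 62.6% higher and 8.9% lower. With a common median 3 were called, 1 higher and 2 lower, against 51.6% of probes, 18.7% higher and 32.9% lower. After cyclic loess 3 were called, 2 higher and 1 lower, against 47.3% of probes, 22.6% higher and 24.7% lower. On percentile ranks 2 were called, 1 in each direction, against 48.8% of probes, 21.4% higher and 27.4% lower. Deposited values of all 5 genes did not overlap between the genotypes, as for 68.8% of probes. Percentiles of 4 of the 5 genes did not overlap between the genotypes, which was so for 51.1% of probes. An exact permutation test on the percentiles of each gene alone, not adjusted over probes, gave p = 0.0286 for those 4 and 0.429 for PSB27. The value 0.0286 is the lowest this test can give with 4 arrays per genotype, and it follows from the lack of overlap. Ranks and quantile-normalised values are both read from the order of probes and are not separate evidence.

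**Figure D3:**
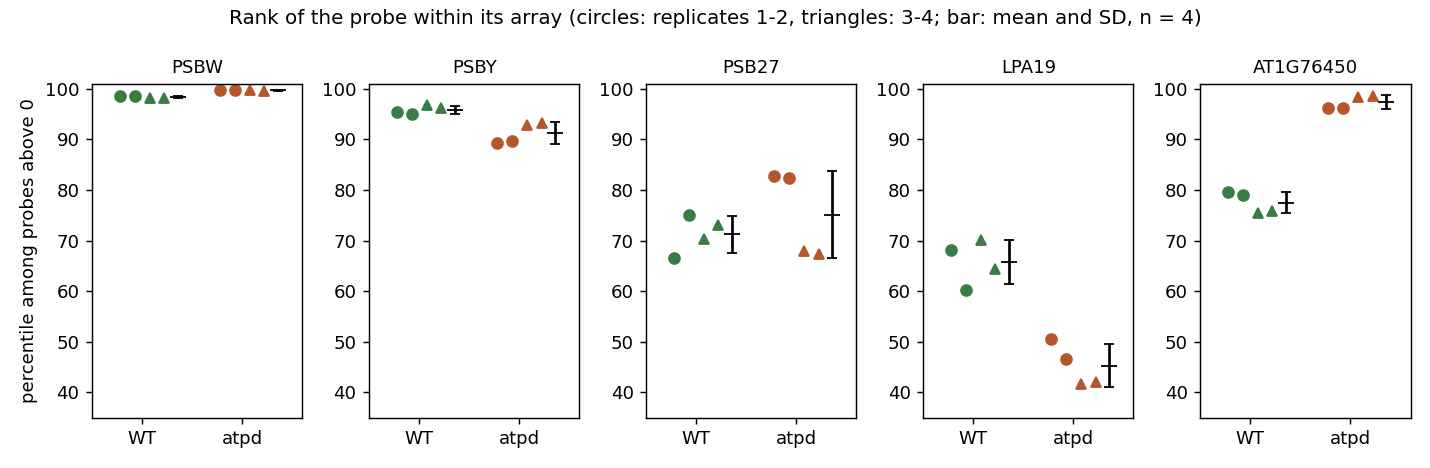
Percentile of each gene's probe among the probes above 0 on the same array, with circles for replicates 1 and 2, triangles for replicates 3 and 4, and bars for the mean and SD (n = 4). LPA19 fell by 20.5 points, AT1G76450 rose by 19.9, PSBW stays near the top, and PSB27 splits by array pair in *atpd*.

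To set small subunits against assembly and lumenal factors, the log2 ratio of each pair of genes was taken within each array, which removes any factor common to an array. The change of that ratio was fitted with limma for all probes relative to the denominator, the gene named second in each ratio. In deposited values 8 of 10 pairs passed. Of all probes, 50.9% passed relative to PSBW, 80.7% relative to PSBY, 42.9% relative to PSB27 and 51.8% relative to LPA19. A scaling that depends on brightness can still move such ratios, and 5 of the 10 pairs passed with deposited, quantile-normalised and cyclic loess values alike. The matching share of all probes was not computed, so that count is a description only and no mark of these genes. The ratio fits count each array of a genotype separately, and fits that join the array pairs were not run for them.

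The small subunits did not move together. The intensity ratio of PSBY to PSBW was 0.203, 0.169, 0.378 and 0.307 on the WT replicates and 0.0524, 0.0488, 0.0720 and 0.0755 on the *atpd* replicates. Every *atpd* array lay below every WT array. The log2 ratio fell by 2.04 (95% interval -2.70 to -1.38, adjusted p = 0.000489), a 4.11-fold drop, and by 3.03 with quantile-normalised values (adjusted p = 4.03e-06). The genotypes were apart on this ratio in both array pairs.

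The factors did not move together either. The ratio of AT1G76450 to LPA19 was 1.41, 1.67, 1.18 and 1.40 on the WT replicates and 4.95, 5.40, 11.3 and 11.9 on the *atpd* replicates. Every *atpd* array was higher, and the rise in log2 ratio was 2.46 (95% interval 1.74 to 3.19, adjusted p = 0.000326). AT1G76450 rose relative to PSB27 by 1.86 (adjusted p = 0.00585) and relative to PSBY by 3.54 (adjusted p = 1.22e-05). Both held with the other scalings of the ratio.

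LPA19 and PSB27, the Psb27 relatives, gave a less settled contrast. The ratio of LPA19 to PSB27 was 1.04, 0.679, 0.998 and 0.780 in WT and 0.502, 0.480, 0.642 and 0.669 in *atpd*, so the genotypes did not overlap, though WT replicate 2 and *atpd* replicate 4 nearly met. The log2 ratio changed by -0.60 (95% interval -1.10 to -0.10), which missed the threshold over all probes (adjusted p = 0.0539). It passed with quantile-normalised values (-0.77, adjusted p = 0.0126) and after cyclic loess (-0.84, adjusted p = 0.00931).

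Across the roles, LPA19 fell relative to PSBW by 0.96 (adjusted p = 0.00427). PSB27 relative to PSBW was at -0.36 (interval -0.74 to 0.012, adjusted p = 0.0962) in deposited values, but at -1.97 with quantile-normalised values (adjusted p = 7.47e-06). AT1G76450 rose relative to PSBW by 1.498 (adjusted p = 0.0109), a call lost with quantile-normalised values (0.52, adjusted p = 0.285) and after cyclic loess (0.44, adjusted p = 0.270). Relative to PSBY, PSB27 rose by 1.68 (adjusted p = 0.000398) and LPA19 by 1.08 (adjusted p = 0.00166). After cyclic loess PSB27 over PSBY was at 0.65 (adjusted p = 0.126) and LPA19 over PSBY turned to -0.18 (adjusted p = 0.610). With quantile-normalised values LPA19 over PSBY was at 0.29 and not called (adjusted p = 0.372).

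**Figure D4:**
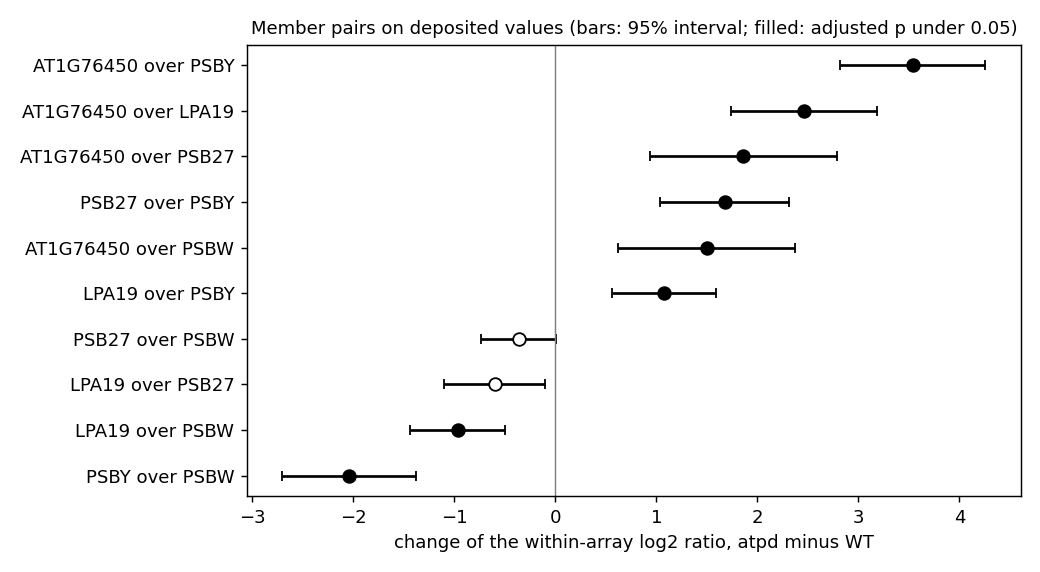
Change in the within-array log2 ratio of each of the 10 gene pairs, *atpd* minus WT, on deposited values, with 95% intervals. Filled points have an adjusted p under 0.05. The largest rise is AT1G76450 over PSBY at 3.54 and the largest fall is PSBY over PSBW at -2.04.

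Few other photosystem II genes could be read. The lists of photosystem II subunits, of assembly and repair factors and of PsbP- and PsbQ-domain proteins hold 57 loci. Of these, 6 have a single-gene probe, the 5 above and AT1G54500, and 4 more lie only on probes with several genes and were not used. These lists are too short to be read against the 51.8% of all probes called, 21.4% higher and 30.4% lower, and the median change of -0.090. In the subunit list 1 of 2 tested genes rose and 1 fell. In the assembly and repair list 2 of 3 fell, none rose and 1 did not pass, with a median change of -0.60. The 1 tested gene of the PsbP and PsbQ list rose.

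AT1G54500, listed as the rubredoxin-like factor RBD1 and carried in the reference only by its locus tag, had the largest fall on these lists. Its mean intensity was 0.991 ± 0.0627 in WT and 0.393 ± 0.0531 in *atpd* (SD, n = 4 in each), and its mean percentile went from 88.9 to 25.5. Its log2 change was -2.31 (adjusted p = 4.25e-05) and -1.34 as deposited (adjusted p = 6.97e-05). Unlike LPA19, it was lower in all 4 scalings.

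Around the complex, the lists of photosystem II antenna proteins and of photosystem I, cytochrome b6f, plastocyanin and ATP synthase had 1 tested gene each, LHB1B2 and PSAN. Both are bright probes like PSBW, and both were lower after quantile normalisation. LHB1B2 fell by 1.14 and PSAN fell by 1.49 on the log2 scale, and LHB1B2 lost its call after cyclic loess (adjusted p = 0.0562). On percentile ranks, in the limma test that shares variance across probes, neither was called (adjusted p = 0.818 for LHB1B2 and 0.436 for PSAN), nor was PSBW. LHB1B2, whose family is nearly identical in sequence, went from the 99.8th to the 99.3rd mean percentile, and PSAN, a lumenal subunit of photosystem I, from the 98.8th to the 97.3rd, while PSBW went up from the 98.4th to the 99.7th.

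Genes with profiles most like each member were sought among 570 other single-gene probes above 0 on all 8 arrays, by Pearson correlation of normalised values. All probes share the genotypes and the array pairs, so such correlations are a description only. For PSBW they were AT4G19900 (r = 0.997), AT4G17650 (0.995) and AT4G31530 (0.995), and 39 probes had r above 0.95. For PSBY they were AT3G25840 (0.980), AT3G56010 (0.971) and AT5G63390 (0.970), each lower in *atpd*. PSB27 had no probe above 0.95, and its nearest were AT4G34310 (0.902), AT4G38020 (0.892) and AT1G62010 (0.890). LPA19 was nearest to AT1G29700 (0.996), AT1G24310 (0.979) and AT3G06870 (0.972). AT1G76450 was nearest to AT5G40030 (0.985), AT2G31920 (0.975) and AT2G46220 (0.974), and 5 probes had r above 0.95.

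Probes with numbers adjoining each member's were read as well. Whether consecutive numbers are adjacent spots is not stated in the labels. Next to the AT1G76450 probe (number 2229), probe 2227, named for AT5G64150, went from a mean of 0.0954 in WT to 0.750 in *atpd*. Probe 2230, named for AT4G35660, went from 0.288 to 1.14. They reached 14.8% and 22.5% of the AT1G76450 mean in *atpd*, and 16.0% and 48.3% of its mean in WT. After quantile normalisation the change was 1.63 for probe 2227 (adjusted p = 0.00956) and 1.09 for probe 2230 (adjusted p = 0.0775). Probe 2228, which is not named for a single gene, was at 0.445 in WT and 0.391 in *atpd*. Its change after quantile normalisation was -1.12 (adjusted p = 0.0618), opposite in sign to the other neighbours. Probes 2227, 2228 and 2230 were all higher on *atpd* replicates 3 and 4 than on 1 and 2, as AT1G76450 was. Probes 2228 and 2230 were split the same way in WT, where AT1G76450 was nearly constant: probe 2230 was at 0.136 and 0.199 on WT replicates 1 and 2 and at 0.378 and 0.438 on replicates 3 and 4. The part of adjoining probes in the AT1G76450 result was not tested.

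**Figure D5:**
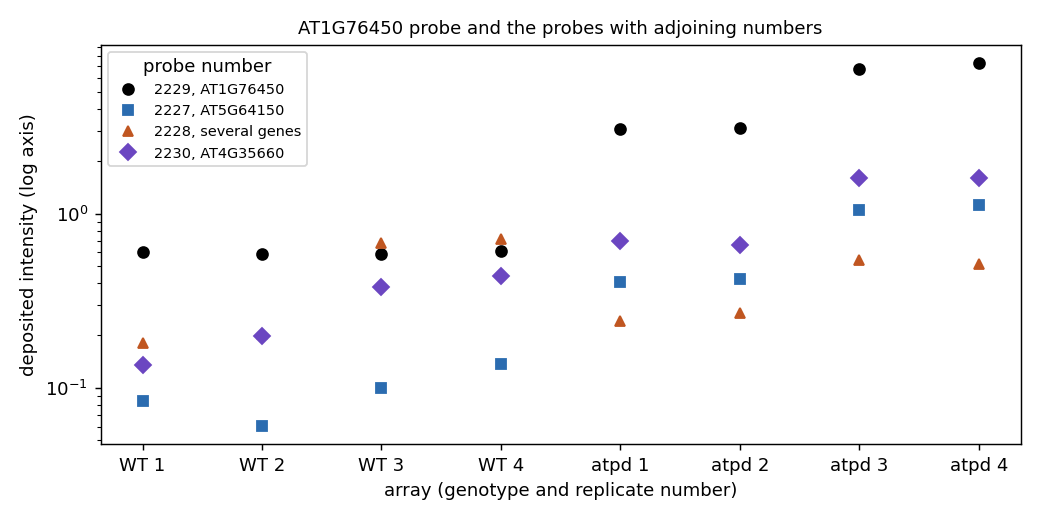
Deposited intensity (log axis) on each array of the AT1G76450 probe and of the probes numbered 2227, 2228 and 2230. All 4 probes are higher on *atpd* replicates 3 and 4 than on replicates 1 and 2, and probes 2228 and 2230 also differ between these pairs in WT. Probe 2231 is left out because it was at 0 on 6 arrays.

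Adjoining probes of the other members moved in both directions. Next to PSBW (3529), probes 3527 and 3530 had mean intensities of 0.628 and 0.336 in *atpd*, 2.24% and 1.201% of the PSBW mean, and probe 3531 had 1.90, or 6.77%. Probe 3527 rose by 0.84 (adjusted p = 0.00621), as PSBW did. Probes 3530 (0.30, adjusted p = 0.541) and 3531 (-0.11, adjusted p = 0.651) were not called. Next to PSBY (2030), which fell, probes 2031 (AT2G20920) and 2032 (AT2G37880) rose, by 1.96 (adjusted p = 0.00306) and 1.15 (adjusted p = 0.000600). These 2 probes reached 54.4% and 50.1% of the PSBY mean in *atpd*, from 4.78% and 6.71% in WT. Next to LPA19 (4071), probes 4069, 4070 and 4072 also fell, by 1.21, 0.78 and 1.68, and probe 4073 rose by 1.26. Probes 4069, 4070 and 4072 were brighter than LPA19 in WT, at 165%, 205% and 132% of its mean. In *atpd* they were at 100.1%, 145% and 62.9%. Probe 4073 went from 50.8% of the LPA19 mean in WT to 167% in *atpd*. Next to PSB27 (2306), probe 2305 fell by 1.02 (adjusted p = 0.0433) and probe 2307 fell by 1.53 (adjusted p = 0.0123). Probe 2308 was at -0.59 and not called (adjusted p = 0.317). Probes 2305, 2307 and 2308 were at 54.1%, 74.2% and 34.7% of the PSB27 mean in WT, and at 31.3%, 28.5% and 26.1% in *atpd*. The part of adjoining probes in these results was not tested either.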

How the data were processed

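The deposited table holds 1 linear intensity per probe and array, and what the authors did to make it (background correction, scaling, the ceiling) is not given in the sources used here. Sequences of the probes and genes were not used here. Samples were grouped by genotype and replicate number from their titles. Probes were named through the platform annotation, and symbols and loci through the RefSeq gene table (TAIR10.1, names only, no coordinates). The 5 members, the gene lists and the tests were chosen with earlier results of these data known. Loci on the lists follow textbook knowledge.

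Values at 0 were treated as missing. Medians above 0 differed by up to 153% between arrays and totals by up to 23.2%, over the tolerance of 5%, so log2 intensities were quantile-normalised. Probes with at least 3 values per genotype (2921) were fitted with limma 3.58.1 (R 4.3.3). Tests were two-sided and, apart from the permutation test on percentiles, adjusted by Benjamini-Hochberg over all tested probes at 0.05. Within-array ratios used deposited log2 values. Genes named are all members, all tested list genes and the 3 most correlated single-gene probes per member, besides the probes within 2 numbers of a member, which were added after values were seen. The number of arrays limits the precision.

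Deviations from the genotype means correlated between a WT array and its same-numbered *atpd* array at 0.362, 0.277, 0.289 and 0.276. All were over the threshold of 0.1, so the numbers were taken to pair the arrays in 1 alternative, the replicate block. Differently numbered arrays within replicates 1 and 2, or within 3 and 4, also passed 0.1, at 0.168 to 0.274. Pairing by number thus cannot be told apart from a difference between these sets. The main fit used genotype only. Alternatives covered the scaling, filters, treatment of zeros, a pseudocount of 0.1, the variance model, the replicate number as a block, array pairs and each array left out.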

Additional observations from a re-analysis of the deposited data

How the results depend on the processing

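All 24 alternatives kept the direction and call of AT1G76450. With the means of array pairs the errors were larger, and the limma adjusted p was 0.0248 for AT1G76450 and 0.0110 for PSBW. A random block for array pairs gave 924 calls and pair means 686, against 1513. The values as deposited gave 2089 calls (1829 higher, 260 lower), the common median 1507 (545 higher, 962 lower), cyclic loess 1382 (660 higher, 722 lower) and leaving out each array 1301 to 1478. PSBW lost its call with a common median (0.30) and on percentile ranks (1.27 points, with an error set largely by other probes). PSBY lost it after cyclic loess (-0.38), on percentile ranks (-4.58 points) and with pair means (-0.89, with a larger error). PSB27 gained a call as deposited (1.11) and turned to -0.058 with a common median and -0.13 in replicates 3 and 4 alone. LPA19 turned to 0.51 as deposited and lost its call with a random pair block (-0.60, adjusted p = 0.0654), pair means (-0.60, adjusted p = 0.178) and replicates 1 and 2 alone (-0.45). Beyond the scalings themselves, the causes were not tested.

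With each array left out, the change ranged from 2.07 to 2.21 for PSBW, -0.99 to -0.75 for PSBY, 0.073 to 0.28 for PSB27, -0.66 to -0.54 for LPA19 and 2.45 to 3.005 for AT1G76450, with no call changed. For LPA19 over PSB27 it ranged from -0.72 to -0.51, past the threshold without WT replicate 2 (-0.72, adjusted p = 0.0382). Leaving out an array keeps the other array of its pair, so these ranges cannot show how far a result depends on a pair. PSB27 over PSBW passed in replicates 3 and 4 alone (-0.63), with quantile-normalised values (-1.97) and after cyclic loess (-2.21). LPA19 over PSB27 passed with quantile-normalised values (-0.77) and after cyclic loess (-0.84). Calls were lost for AT1G76450 over PSBW in both (0.52 and 0.44), for PSB27 over PSBY after cyclic loess (0.65) and for LPA19 over PSBY with quantile-normalised values (0.29). LPA19 over PSBY turned to -0.18 after cyclic loess. Ratios of normalised values, normalising after the filter, and the random and replicate blocks on ranks were chosen after seeing the data. Pairing the arrays through a replicate block gave 1656 calls, and no call of a member or a ratio changed (adjusted p = 0.0118 for LPA19). The random block for array pairs and the pair means were not run for the ratios. Their intervals and p-values therefore count each array of a genotype separately. Averaging several probes of a gene was not run because each member has 1 probe.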
